A study of Homo sapiens with 6 samples.

Results

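Chromosome band 19p13.3 lies at the telomeric end of the short arm of chromosome 19, and 53 of its genes, listed from PLPP2 at the end of the chromosome to ZNF77, are described here in HSC3 cells. The window was picked on these data because its genes were high on the arrays carrying the labels TANGO siRNA and MATE2 siRNA, so the values on those arrays describe the choice and are given without a test. Of the 53 members, 47 had a probe named for that gene alone, 36 gave a good spot on all 6 arrays, 8 gave a good spot on some arrays, and 3 (MADCAM1, HCN2 and SLC39A3) were near background on every array. The 6 others (C2CD4C, MBD3, DOT1L, AP3D1, DIRAS1 and ZNF554) had no such probe, and DOT1L and AP3D1 were present only on probes shared with a second gene. Over the whole array, 18826 genes had a named probe.

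The HSC3 line was derived from a tongue tumour of squamous type, one of the oral carcinomas. Its cells were treated with siRNA against MIA, MIA2, TANGO (a name of MIA3), MATE2 (a name of SLC47A2) or LEMD1, or served as control, and total RNA was labelled with Cy5 and hybridized to a one-colour CodeLink array. The design note gives the control cells a control siRNA, whereas the methods call the cells of the array experiment untreated. There was 1 array per condition, each on its own slide, so slide and condition cannot be told apart, no spread between replicates is known, and ratios are given without errors or p-values. The number of arrays limits the precision of every value.

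Chromosome 19 is known for a high density of genes, and the end of its short arm is rich in G and C, with short genes and many promoters in CpG islands. Many members serve functions that every cell needs, such as transcription, ribosome assembly, protein turnover and mitochondrial respiration. The members also include STK11, the tumour suppressor kinase LKB1 that is lost in Peutz-Jeghers syndrome, and CDC34, a ubiquitin-conjugating enzyme that works with SCF ligases in the cell cycle.

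Promoter sequences of 6 members are shown because these genes carry the patterns described in the results: RNF126 and CDC34 were high on both the TANGO- and MATE2-labelled arrays, CIRBP and GPX4 differed between those arrays, and MISP and GADD45B were low on the MIA2- and LEMD1-labelled arrays. Each holds 250 bases before and 50 after the RefSeq start of the gene on build GRCh38.p14, written 5′ to 3′ on the strand of the gene, with capitals on every GC box (GGGCGG on either strand, the sequence bound by SP1-family factors). The positions are chr19:663165-663464 (minus strand) for RNF126, chr19:531510-531809 (plus strand) for CDC34, chr19:1269082-1269381 (plus strand) for CIRBP, chr19:1103744-1104043 (plus strand) for GPX4, chr19:750862-751161 (plus strand) for MISP and chr19:2475877-2476176 (plus strand) for GADD45B.
RNF126: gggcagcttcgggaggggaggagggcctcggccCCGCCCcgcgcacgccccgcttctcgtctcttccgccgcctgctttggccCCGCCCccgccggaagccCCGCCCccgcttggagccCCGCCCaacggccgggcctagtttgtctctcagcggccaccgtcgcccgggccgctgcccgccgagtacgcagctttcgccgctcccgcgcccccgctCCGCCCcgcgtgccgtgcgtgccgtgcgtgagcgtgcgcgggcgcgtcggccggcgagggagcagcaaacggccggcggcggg
CDC34: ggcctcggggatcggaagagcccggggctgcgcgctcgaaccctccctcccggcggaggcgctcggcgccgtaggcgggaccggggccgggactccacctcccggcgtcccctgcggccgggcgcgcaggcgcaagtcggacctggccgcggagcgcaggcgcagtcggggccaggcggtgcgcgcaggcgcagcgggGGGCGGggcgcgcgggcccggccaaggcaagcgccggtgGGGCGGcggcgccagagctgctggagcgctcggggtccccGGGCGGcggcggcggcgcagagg
CIRBP: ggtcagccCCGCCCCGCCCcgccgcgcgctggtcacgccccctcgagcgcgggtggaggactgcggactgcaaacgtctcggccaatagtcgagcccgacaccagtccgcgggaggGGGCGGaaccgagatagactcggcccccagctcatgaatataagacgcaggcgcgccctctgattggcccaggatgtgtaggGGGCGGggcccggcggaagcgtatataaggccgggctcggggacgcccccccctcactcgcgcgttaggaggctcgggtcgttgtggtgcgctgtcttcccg
GPX4: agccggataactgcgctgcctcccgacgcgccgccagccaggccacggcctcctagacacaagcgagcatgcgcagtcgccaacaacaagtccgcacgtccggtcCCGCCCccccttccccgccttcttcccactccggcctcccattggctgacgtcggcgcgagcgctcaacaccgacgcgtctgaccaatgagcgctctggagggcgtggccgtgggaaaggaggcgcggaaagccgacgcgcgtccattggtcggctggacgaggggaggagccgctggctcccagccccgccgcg
MISP: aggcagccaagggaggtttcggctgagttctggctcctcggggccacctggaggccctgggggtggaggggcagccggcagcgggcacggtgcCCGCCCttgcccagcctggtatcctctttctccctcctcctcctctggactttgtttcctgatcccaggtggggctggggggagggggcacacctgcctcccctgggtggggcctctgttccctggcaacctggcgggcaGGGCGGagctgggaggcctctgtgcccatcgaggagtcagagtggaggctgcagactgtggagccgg
GADD45B: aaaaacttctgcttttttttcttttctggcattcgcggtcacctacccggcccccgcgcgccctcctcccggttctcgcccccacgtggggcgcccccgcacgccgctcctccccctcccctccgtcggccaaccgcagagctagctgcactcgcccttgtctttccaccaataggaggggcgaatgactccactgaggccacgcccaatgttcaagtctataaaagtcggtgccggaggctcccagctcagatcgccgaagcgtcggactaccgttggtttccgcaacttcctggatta

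GC boxes numbered 5 in the RNF126 promoter, 3 in CDC34, 4 in CIRBP, 1 in GPX4, 2 in MISP and 0 in GADD45B. RefSeq promoters were matched for 44 of the 53 members, and 41 of them (93.2%) held at least 1 GC box, compared with 44.6% of all 27305 promoters of the same length. The median G and C content was 71.8% in the member promoters and 58.3% in all promoters, and the median number of CpG dinucleotides was 36 against 14. CCAAT was found on either strand in 20 member promoters (45.5%, compared with 35.7% of all) and TATAAA in 4 (9.09%, compared with 12%). CACGTG was found in 2 member promoters (4.55% against 7.43% of all), TGACG in 13 (29.5% against 25%), TGACTCA in 1 (2.27% against 4.92%) and CCGGAAG in 7 (15.9% against 10.7%). The motifs were counted separately on both strands, TGACG and TGACTCA share their first letters, and matches of different motifs may overlap. The member promoters were thus richer in G, C and GC boxes than promoters at large, and these matches describe the letters of the windows only. Richness in G and C was not particular to the members. The genes good on all 6 arrays also had higher medians than promoters at large. The other genes of the same stretch were closer still to the members, and the next 17 genes of 19p had medians of 69.8% and 39.5 CpG dinucleotides. GC boxes were not compared for these sets.

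The arrays differed among themselves across the whole genome. Over all genes, the log2 signals of the control, MIA-, MIA2- and LEMD1-labelled arrays correlated with each other at r = 0.919 to 0.980, those arrays correlated with the TANGO- and MATE2-labelled arrays at r = 0.855 to 0.876, and the latter pair correlated at r = 0.892. In addition, 244 gene probes were good on the 4 other arrays and near background on both the TANGO- and MATE2-labelled arrays, and 332 showed the reverse. SLC47A2, the target named MATE2, had normalized signals of 1510 on control, 1334 on MIA, 1575 on MIA2, 58.9 on TANGO, 79.6 on MATE2 and 1703 on LEMD1, and was therefore low on the TANGO-labelled array as well as on its own. LEMD1 signals were 277.9, 195.1, 42.3, 3192.1, 1011.4 and 27.6 in the same order, near background on both the MIA2- and LEMD1-labelled arrays. The good MIA2 probe was not lower on the MIA2-labelled array (169 against 155 on control), MIA was near background throughout, and no probe was named for MIA3, so arrays are called by their labels below, and "on TANGO" stands for the array labelled TANGO siRNA. Of 8 epithelial and squamous markers, 6 had a probe and all 6 were good on every array with a summed signal of 11526 to 36409, whereas 4 to 5 of 7 fibroblast markers (summed signal 596 to 979.8), 1 to 2 of 5 endothelial markers (408.1 to 612.3) and 2 to 3 of 6 leukocyte markers (192.9 to 335.6) were good. The part of these differences between arrays in the results for 19p13.3 was not tested, and in a bulk RNA sample fewer cells of a type and less RNA per cell cannot be told apart.

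Taken as a block, the members were higher on the TANGO- and MATE2-labelled arrays, the arrays on which they were chosen. A ratio was formed where the spot was good on both arrays, and a gene was counted as changed when that log2 ratio reached 1 in size, which corresponds to a 2-fold difference. On the TANGO-labelled array, 10 of 39 measured members were at least 2-fold higher than control, compared with 5.57% of all genes, 0 were 2-fold lower, compared with 9.1%, and 34 lay above 0, compared with 48.0%. The median log2 ratio was 0.42 over the members and -0.03 over all 12541 genes measured. On the MATE2-labelled array, 6 of 39 members were at least 2-fold higher, compared with 5.94% of all genes, 0 were lower, compared with 11.7%, and 26 lay above 0, compared with 47.7%. The medians there were 0.37 and -0.03. In 19 of the 36 members good on all arrays, the TANGO and MATE2 signals both exceeded the other 4, a pattern seen in 15.6% of all 11472 such genes. Since these arrays chose the window, nothing is read from the excess over the background.

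The 3 other siRNA arrays were not used for the choice, although they share the control array with the former pair. On the MIA-labelled array, 0 of 38 members were 2-fold higher (0.391% of all genes), 0 were 2-fold lower (0.266%) and 10 lay above 0 (43.3%), with a median log2 ratio of -0.13 against -0.04 over all genes. On the MIA2-labelled array, 0 of 40 members were higher (3.3%), 3 were lower (5.2%) and 20 lay above 0 (49.3%), with medians of -0.06 and -0.01. On the LEMD1-labelled array, 0 of 38 members were higher (2.02%), 2 were lower (3.98%) and 15 lay above 0 (47.4%), with medians of -0.08 and -0.02. The lower members made up 7.5% on MIA2 and 5.26% on LEMD1, near the background shares, and the medians of the block and of all genes were both below 0. On MIA2 the median of the block turned above 0 under 5 alternative settings, within a range of -0.15 to 0.10. When the TANGO- and MATE2-labelled arrays were left out of the normalization, the medians on the MIA, MIA2 and LEMD1 arrays were -0.14, -0.06 and -0.08.

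**Figure D1:**
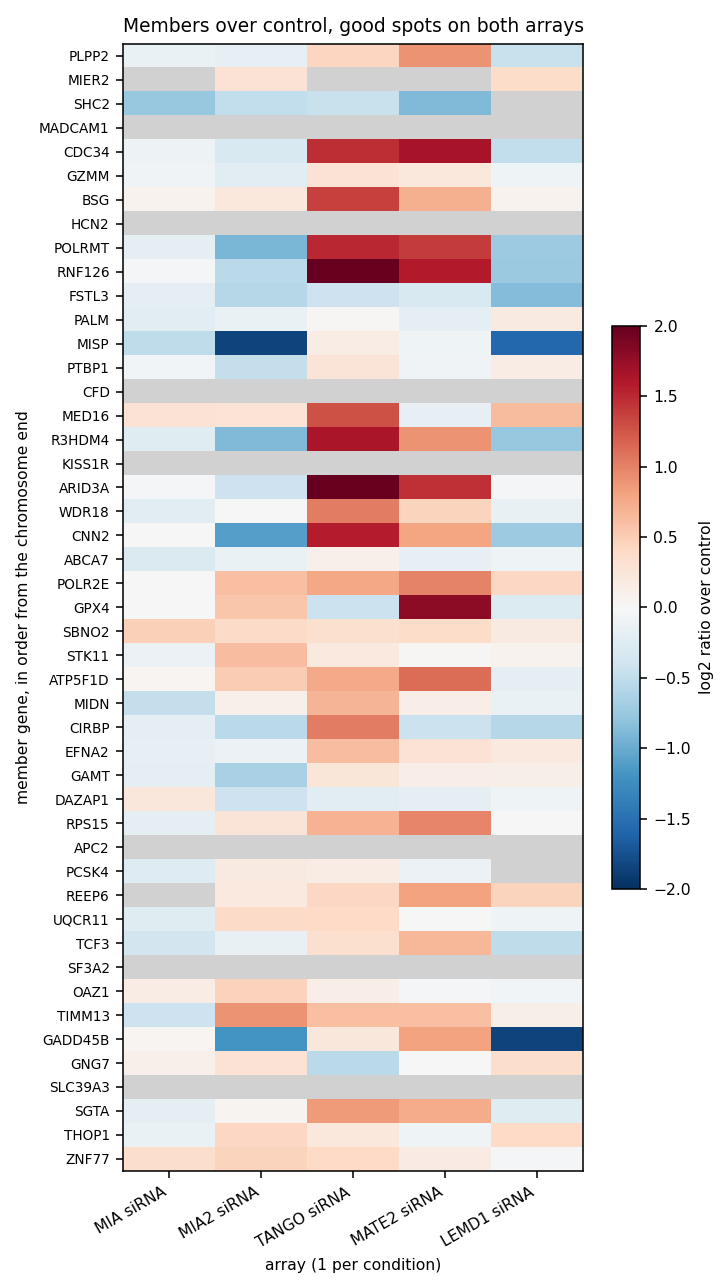
Log2 ratio over control of the 47 members with a named probe (rows, in order from the chromosome end) on the 5 siRNA arrays (columns, 1 array each); grey marks a spot that was not good on both arrays. Red cells gather in the TANGO and MATE2 columns from CDC34 to CIRBP, and the darkest blue cells are MISP and GADD45B in the MIA2 and LEMD1 columns.

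The protein turnover group held 2 of the members that were 2-fold higher on both TANGO and MATE2. RNF126, an E3 ubiquitin ligase that acts in the quality control of mislocalized proteins, had normalized signals of 114 on control, 112 on MIA, 78.3 on MIA2, 464 on TANGO, 342 on MATE2 and 68.6 on LEMD1. Its log2 ratio over control was 2.02 (4.06-fold) on TANGO and 1.58 (2.99-fold) on MATE2, compared with -0.03, -0.55 and -0.74 on MIA, MIA2 and LEMD1. The TANGO and MATE2 signals stood clear of the other 4, of which control was the highest. CDC34, the ubiquitin-conjugating enzyme, had signals of 137, 128, 111, 381, 429 and 97.7 on the arrays in that order, giving log2 ratios of 1.47 on TANGO and 1.64 on MATE2. SGTA, a co-chaperone that hands membrane proteins to the BAG6 complex in which RNF126 works, had signals of 113, 100.1, 118, 203, 188 and 95.2 and log2 ratios of 0.85 and 0.74, short of 2-fold on both arrays. For all 3 genes the same pair of arrays was highest and the LEMD1-labelled array lowest. Of the 6 members of this group, OAZ1, MIDN and THOP1 were within 2-fold of control on every array, and 2 of 6 were 2-fold higher on each of TANGO and MATE2. The shares over all genes were 5.57% and 5.94%, and these arrays chose the window, so nothing is read from that count.

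Partners of these proteins outside the member list did not show the same values. The members, unlike the partners, belong to a window picked as high on TANGO and MATE2, so nothing is read from the difference. Of 11 listed partners of CDC34 and RNF126, 9 were measured on TANGO with a median log2 ratio of -0.34, 0 at least 2-fold higher and 1 lower, and 8 on MATE2 with a median of -0.29, 0 higher and 2 lower. BAG6, the scaffold that RNF126 binds, was at -1.42 on TANGO and -1.07 on MATE2, and the CDC34 paralog UBE2R2 was at -0.82 and -0.84. CUL1, the scaffold of SCF ligases, was at -0.59 and -1.51. On the MIA-, MIA2- and LEMD1-labelled arrays the partner medians were -0.06, -0.004 and 0.06, with BTRC lower on MIA2 (-1.08) and SKP2 higher on LEMD1 (1.27). The 10 listed partners of OAZ1, the antizyme that sends ornithine decarboxylase to the proteasome, had medians of -0.08, -0.11, 0.37, 0.15 and 0.06 on MIA, MIA2, TANGO, MATE2 and LEMD1. Among them the spermine oxidase SMOX was high on TANGO (2.70) and MATE2 (2.04), the spermidine acetyltransferase SAT1 was lower on MIA2 (-1.31) and higher on MATE2 (1.32), AZIN1 was lower on MIA2 (-1.19), ODC1 was lower on MATE2 (-1.15) and higher on LEMD1 (1.02), and SMS was lower on MATE2 (-1.91). OAZ1 itself stayed between -0.06 and 0.46 on the 5 arrays.

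**Figure D2:**
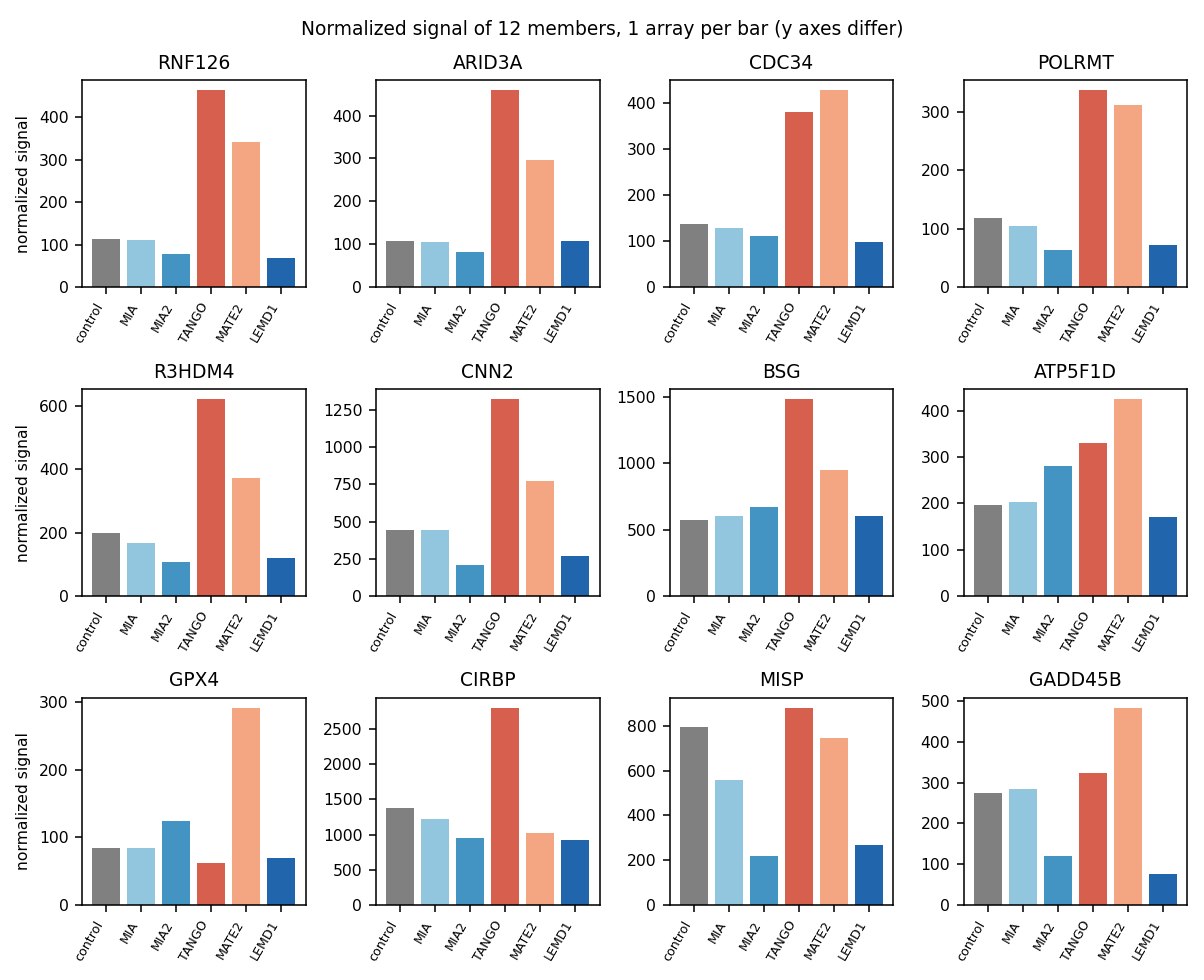
Normalized signal (linear y axis from 0, scaled per gene) of 12 members on the 6 arrays, 1 bar per array. In the upper 2 rows the TANGO and MATE2 bars are the tallest, GPX4 is tall on MATE2 alone and CIRBP on TANGO alone, and MISP and GADD45B are short on MIA2 and LEMD1.

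In the transcription group, ARID3A, a DNA-binding protein that cooperates with E2F factors, had signals of 108, 105, 81.3, 459, 296 and 107 on control, MIA, MIA2, TANGO, MATE2 and LEMD1. The log2 ratios were 2.09 (4.25-fold) on TANGO and 1.45 (2.74-fold) on MATE2, and between -0.41 and -0.02 on the other arrays. Its second probe was near background on control, MIA, MIA2 and LEMD1 and good on TANGO and MATE2, which puts it at least 2.71-fold and 2.07-fold higher there (the bright signal over the lowest good signal of the dim array). Both probes of ARID3A thus put TANGO highest and MATE2 next, whereas the order of the 4 other arrays differed between the probes. POLR2E, a subunit shared by the nuclear RNA polymerases, had signals of 358, 358, 542, 613, 712 and 479, with log2 ratios of 0.78 on TANGO and 0.99 on MATE2 and of 0.60 on MIA2 and 0.42 on LEMD1. It was above control on every array except MIA, where the ratio was 0.00. MED16, a subunit of the Mediator tail, had signals of 57.5, 70.2, 69.3, 139, 51.4 and 89.0 and was 2-fold higher on TANGO alone (1.28, against -0.16 on MATE2). SBNO2, a helicase-family transcriptional corepressor, had signals of 321, 448, 418, 400.4, 414 and 363 and was within 1.40-fold of control on all 5 arrays. TCF3, a basic helix-loop-helix factor, was at 0.32 on TANGO and 0.66 on MATE2, and its second probe at 0.04 and -0.09.

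The listed subunits of RNA polymerase II and Mediator outside the member list, 34 in number, had a median log2 ratio of 0.00 on TANGO (28 measured, 0 changed 2-fold) and of 0.30 on MATE2 (25 measured, 5 higher and 0 lower). Those 5 were POLR2F (1.11), POLR2G (1.43), POLR2H (1.13), POLR2I (1.14) and MED30 (1.08), so that POLR2E on MATE2 stood among several polymerase subunits that were high there. On MIA, MIA2 and LEMD1 the medians were -0.01, 0.07 and -0.02, and POLR2L alone was 2-fold higher (1.40 on MIA2 and 1.03 on LEMD1). MBD3, the methyl-CpG-binding subunit of the NuRD chromatin remodeller, had no probe of its own, and 10 of its 12 listed partners had medians of -0.03 on MIA, -0.05 on MIA2, -0.62 on TANGO, -0.87 on MATE2 and 0.03 on LEMD1. MTA3 was lower on TANGO (-1.13) and MATE2 (-1.26), the ATPase CHD4 was at -0.72 and -1.33, MBD2, RBBP4 and RBBP7 were 2-fold lower on MATE2 (-1.35, -1.03 and -1.56), and MTA1 was lower on MIA2 (-1.01).

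Among members of RNA processing and the ribosome, RPS15, a protein of the small ribosomal subunit, had signals of 1640, 1451, 1956, 2648, 3213 and 1641. The log2 ratios were 0.69 on TANGO and 0.97 on MATE2, against -0.18, 0.25 and 0.00 on MIA, MIA2 and LEMD1, and none reached 2-fold. The other 29 listed proteins of the small subunit, 22 of them measured, had medians of 0.04, 0.15, -0.09, 0.25 and -0.07 on MIA, MIA2, TANGO, MATE2 and LEMD1, with RPS26 lower on TANGO (-1.16) and RPS23 higher on MATE2 (1.26). WDR18, a scaffold of ribosome maturation, had signals of 496, 428, 496, 1011, 675 and 448 and log2 ratios of 1.03 on TANGO and 0.44 on MATE2. It was above control on that pair and equal to it on MIA2.

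CIRBP, a cold-inducible RNA-binding protein, split the pair of arrays. Its signals were 1382 on control, 1216 on MIA, 955 on MIA2, 2801 on TANGO, 1021 on MATE2 and 928 on LEMD1, so that TANGO stood above and the 4 other siRNA arrays below control. The log2 ratio was 1.02 on TANGO and -0.44 on MATE2. RBM3, a related cold-inducible protein on the X chromosome, was at 1.69 on TANGO and -0.45 on MATE2, and also at 1.13 on MIA2 and 0.74 on LEMD1, where CIRBP was at -0.53 and -0.58. The 9 listed partners of CIRBP and DAZAP1 had medians of -0.09, 0.15, -0.32, -0.57 and 0.32 on the 5 arrays, with RTN3 lower on TANGO (-1.80) and HNRNPD lower on MATE2 (-1.08). DAZAP1, an RNA-binding protein of germ cells and splicing, had signals of 199, 231, 150.0, 170 (TANGO), 174 (MATE2) and 186, with log2 ratios of -0.23 and -0.19 on that pair. PTBP1, a splicing repressor, was within 1.40-fold of control on all arrays, and the 15 listed splicing partners (11 measured) had medians of -0.02, 0.15, -0.15, -0.52 and 0.22, with SF3B5 higher (1.36) and HNRNPA1 lower (-1.20) on MATE2.

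In the mitochondrial and metabolic group, POLRMT, the RNA polymerase of mitochondria, had signals of 119, 105, 63.3, 338, 312 and 71.5 at its brightest probe. The log2 ratios were 1.51 on TANGO and 1.39 on MATE2, and -0.91 and -0.73 on MIA2 and LEMD1. Its other probes gave lower ratios, 0.43 and 0.40 on TANGO and 0.49 and -0.14 on MATE2, and the one of them that was good on all arrays was at -0.10 on MIA2 and 0.25 on LEMD1. That probe had higher signals than the first on MIA, MIA2 and LEMD1 (133, 102 and 130). The TANGO and MATE2 signals thus made the first probe the brightest. The 2-fold count of POLRMT therefore rests on a probe picked through the arrays that chose the window. POLRMT was the only member whose good probes lay more than 1 apart. For the 6 members with at least 2 good probes, the median gap between probes was 0.31 over 26 pairs of gene and array, 2 gaps exceeded 1, and the highest was 1.54. CNN2, by contrast, had a second probe with signals of 393, 399, 203, 1194, 621 and 254, close to those of the first.

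ATP5F1D, the delta subunit of the mitochondrial ATP synthase, had signals of 196, 203, 281, 331, 425 and 171, with log2 ratios of 0.75 on TANGO and 1.12 on MATE2, and 0.52 on MIA2. UQCR11, a small subunit of complex III, was at 0.40 on TANGO and 0.01 on MATE2, and its second probe at 0.58 and 0.51. The 14 measured partners of these subunits had medians of 0.08, 0.69, 0.20, 0.70 and 0.42 on MIA, MIA2, TANGO, MATE2 and LEMD1, and all 14 lay above 0 on MATE2. CYC1 was higher on MATE2 (1.52) and UQCR10 on MIA2 (1.12) and LEMD1 (1.11). ATP5F1D was therefore high on MATE2 alongside subunits that are not members, as POLR2E was. The 12 listed partners of POLRMT and of the import chaperone TIMM13 had medians of 0.10, 0.63, 0.14, 0.30 and 0.22. TIMM8B was higher on MIA2 (1.05) and MATE2 (1.04) and TIMM10 on MATE2 (1.68), whereas TIMM10B was lower on TANGO (-1.25) and MATE2 (-1.01), TIMM8A lower on TANGO (-1.42) and TIMM22 lower on MATE2 (-1.13). TIMM13 itself was at 0.60 on TANGO, 0.61 on MATE2 and 0.89 on MIA2.

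GPX4, the selenoprotein that reduces lipid peroxides and restrains ferroptosis, was high on a single array. The signals were 84.4 on control, 84.1 on MIA, 124 on MIA2, 62.5 on TANGO, 291 on MATE2 and 69.6 on LEMD1. The log2 ratio was 1.79 (3.45-fold) on MATE2 and -0.43 on TANGO, and the MATE2 signal lay above the TANGO signal by 2.22 on the log2 scale. The 21 listed partners in ferroptosis and selenoprotein metabolism had medians of 0.01, 0.31, -0.45, -0.39 and 0.30 on MIA, MIA2, TANGO, MATE2 and LEMD1. ACSL4, which loads membranes with oxidizable lipids, was lower on TANGO (-1.93) and MATE2 (-1.91), and GPX1 was lower on the same arrays (-1.22 and -1.15). GPX2 was higher on MIA2 (2.15), TANGO (1.55), MATE2 (2.82) and LEMD1 (1.77). GCLC, the catalytic subunit of glutathione synthesis, was lower on TANGO (-2.93) and MATE2 (-1.89) and higher on MIA2 (1.37) and LEMD1 (1.84). The cystine transporter SLC7A11 (2.77) and GCLM (1.53) were higher on MATE2, and TXNRD1 (-2.25) and AIFM2 (-1.30) were lower on TANGO. GAMT, which makes creatine, had signals of 676, 599, 431, 799, 737 and 731 and differed from control by less than 1.57-fold on all arrays.

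**Figure D3:**
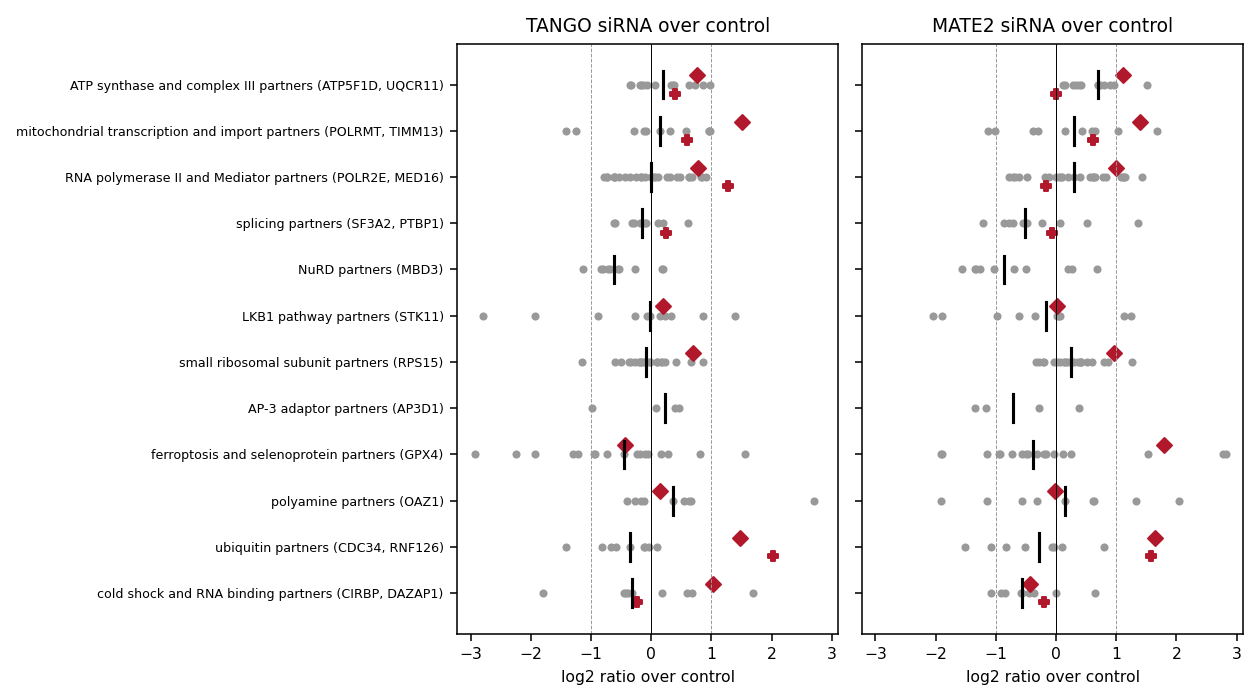
Log2 ratio over control on the TANGO- and MATE2-labelled arrays (x axes) for the listed partner genes of member proteins (grey points, rows are lists, black bars are list medians) and for the members named in each row (red, diamond for the first name and cross for the second where both are measured). CDC34 and RNF126 lie to the right of all their measured partners on both arrays, whereas ATP5F1D and POLR2E on MATE2 lie within the range of theirs. The members belong to a window picked as high on these arrays, so their place beside the partners is a description only.

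In the membrane and cytoskeleton group, CNN2, an actin-binding calponin, had signals of 446, 443, 207, 1324, 774 and 268. The log2 ratios were 1.57 (2.97-fold) on TANGO and 0.80 on MATE2, and the gene was 2-fold lower on MIA2 (-1.10) and at -0.73 on LEMD1. It was the only member that was 2-fold higher on one array and 2-fold lower on another. BSG, also called CD147 or basigin, a glycoprotein that escorts lactate transporters to the membrane, had signals of 576, 605, 669, 1486, 948 and 607, with log2 ratios of 1.37 on TANGO and 0.72 on MATE2. BSG was near control on MIA, MIA2 and LEMD1, where the ratios were 0.07, 0.21 and 0.08. PALM, a membrane-anchored protein of the plasma membrane, had signals of 157, 133, 143, 160.0, 138 and 177, and the lipid transporter ABCA7 had 106, 87.2, 97.0, 114, 94.9 and 99.3. At these probes neither gene differed from control by more than 1.22-fold on any array, but the dimmer ABCA7 probe was near background on MIA2, MATE2 and LEMD1, at least 1.25-fold, 1.53-fold and 1.63-fold lower than control. R3HDM4, a protein of little known function, had signals of 200, 169, 108, 622, 372 and 119 and log2 ratios of 1.64 on TANGO and 0.90 on MATE2.

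MISP, an actin-bundling protein that anchors the mitotic spindle to the cell cortex, was low on other arrays than those that chose the window. Its signals were 794 on control, 560 on MIA, 219 on MIA2, 881 on TANGO, 746 on MATE2 and 267 on LEMD1. The log2 ratio was -1.86 (3.63-fold lower) on MIA2 and -1.57 (2.97-fold lower) on LEMD1, and 0.15 and -0.09 on TANGO and MATE2. GADD45B, a stress-inducible activator of the p38 kinase pathway, had signals of 275, 283, 121, 324, 483 and 76.6. At this probe it was at -1.19 (2.28-fold lower) on MIA2 and at -1.84 (3.59-fold lower) on LEMD1, but at 0.23 on TANGO and 0.81 on MATE2. The second and dimmer GADD45B probe did not show this: it was near background on control and good on MIA and MIA2, at least 1.70-fold and 1.52-fold higher there, so the probes disagree in direction on MIA2. At the brighter probes of MISP and GADD45B the MIA2 and LEMD1 signals were the lowest of the 6, and no member other than these and CNN2 had a 2-fold log2 ratio on the arrays that did not choose the window. LEMD1 over MIA2, the direct ratio of that pair, was -0.65 for GADD45B and 0.29 for MISP. Of the 36 members, 0 differed 2-fold between these arrays, as did only 0.88% of all genes, so the count sets the members apart from no others.

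Of the 8 signalling and secreted members measured on TANGO and MATE2, GADD45B among them, 0 were 2-fold changed there, and the medians were 0.17 and 0.01. Of all genes, 5.57% were 2-fold higher and 9.1% lower on TANGO, and 5.94% and 11.7% on MATE2. With 8 members, a count of 0 does not set the group apart. FSTL3, a secreted antagonist of activins, had signals of 272, 238, 183, 204, 219 and 149.7, below control on all 5 arrays and lowest on LEMD1 (-0.86). GNG7, a G protein gamma subunit, had signals of 138, 148, 169, 95.8, 138 and 176 and was lowest on TANGO (-0.53). STK11 itself was within 0.20 of control on the log2 scale on MIA, TANGO, MATE2 and LEMD1 and at 0.62 on MIA2. Its 16 listed pathway partners had medians of -0.11, -0.31, -0.01, -0.17 and -0.19 on MIA, MIA2, TANGO, MATE2 and LEMD1. CAB39, the scaffold that activates the kinase, was lower on MIA2 (-1.83), TANGO (-1.93), MATE2 (-2.04) and LEMD1 (-1.47), as was the AMPK subunit PRKAG2 (-1.33, -2.80, -1.90 and -1.29). CAB39L was lower on MIA2 (-1.15), STRADB was higher on TANGO (1.38), and SIK1 (1.24) and SIK2 (1.14) were higher on MATE2. Of the 6 listed partners of AP3D1, a member without a probe of its own, 4 were measured, with medians of -0.13, -0.07, 0.23, -0.72 and -0.11 and with AP3B1 (-1.35) and AP3M1 (-1.16) lower on MATE2. SHC2, an adaptor of receptor kinases, was at -0.44 on TANGO and -0.88 on MATE2, and at least 2.83-fold lower on LEMD1, where its spot was near background.

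Listed members at different positions in the window differed. Of the 36 members good on all arrays, the 12 nearest to the chromosome end (PLPP2 to R3HDM4) had median log2 ratios of 0.85 on TANGO and 0.46 on MATE2, and 6 and 3 of them were 2-fold higher. The next 12 (ARID3A to EFNA2) had medians of 0.72 and 0.41, with 4 and 3 higher, and the last 12 (GAMT to ZNF77) had medians of 0.28 and 0.14, with 0 and 0 higher. Of all 11472 genes good on the 6 arrays, 634 were 2-fold higher on TANGO and 687 on MATE2. A count of 0 among 12 genes is close to that share. All 2-fold higher members lay between CDC34 and CIRBP. This describes the listed members and not the position. Between GAMT and ZNF77 some other genes of the window, such as PLEKHJ1 and LSM7, were 2-fold higher on both arrays. The first member, PLPP2, a lipid phosphate phosphatase, had signals of 187, 170, 168, 251, 348 and 137 and log2 ratios of 0.43 and 0.90, and no measured gene lay between it and the chromosome end. At the other edge ZNF77, a zinc finger protein, had signals of 92.7, 118, 126, 123, 103 and 90.1 and ratios of 0.41 and 0.16. The nearest measured gene beyond it, TLE5, was at -0.10 on TANGO and -0.39 on MATE2.

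Genes next to the members were set beside them as a description of the same stretch. The 19 other genes of the window that were good on all arrays had medians of 0.63 on TANGO and 0.65 on MATE2, and 0.09, 0.28 and 0.12 on MIA, MIA2 and LEMD1. The next 17 genes of 19p had medians of 0.41 and 0.15 on TANGO and MATE2, the remaining 238 genes of 19p had 0.05 and 0.06, and 375 genes of 19q had -0.07 and 0.15. The 36 genes that follow the first 72 of chromosome 19, all outside the window, had medians of 0.45 on TANGO and 0.38 on MATE2, and 1 later stretch of 36 genes reached 0.36 on MATE2, so the medians did not fall off evenly along the chromosome.

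**Figure D4:**
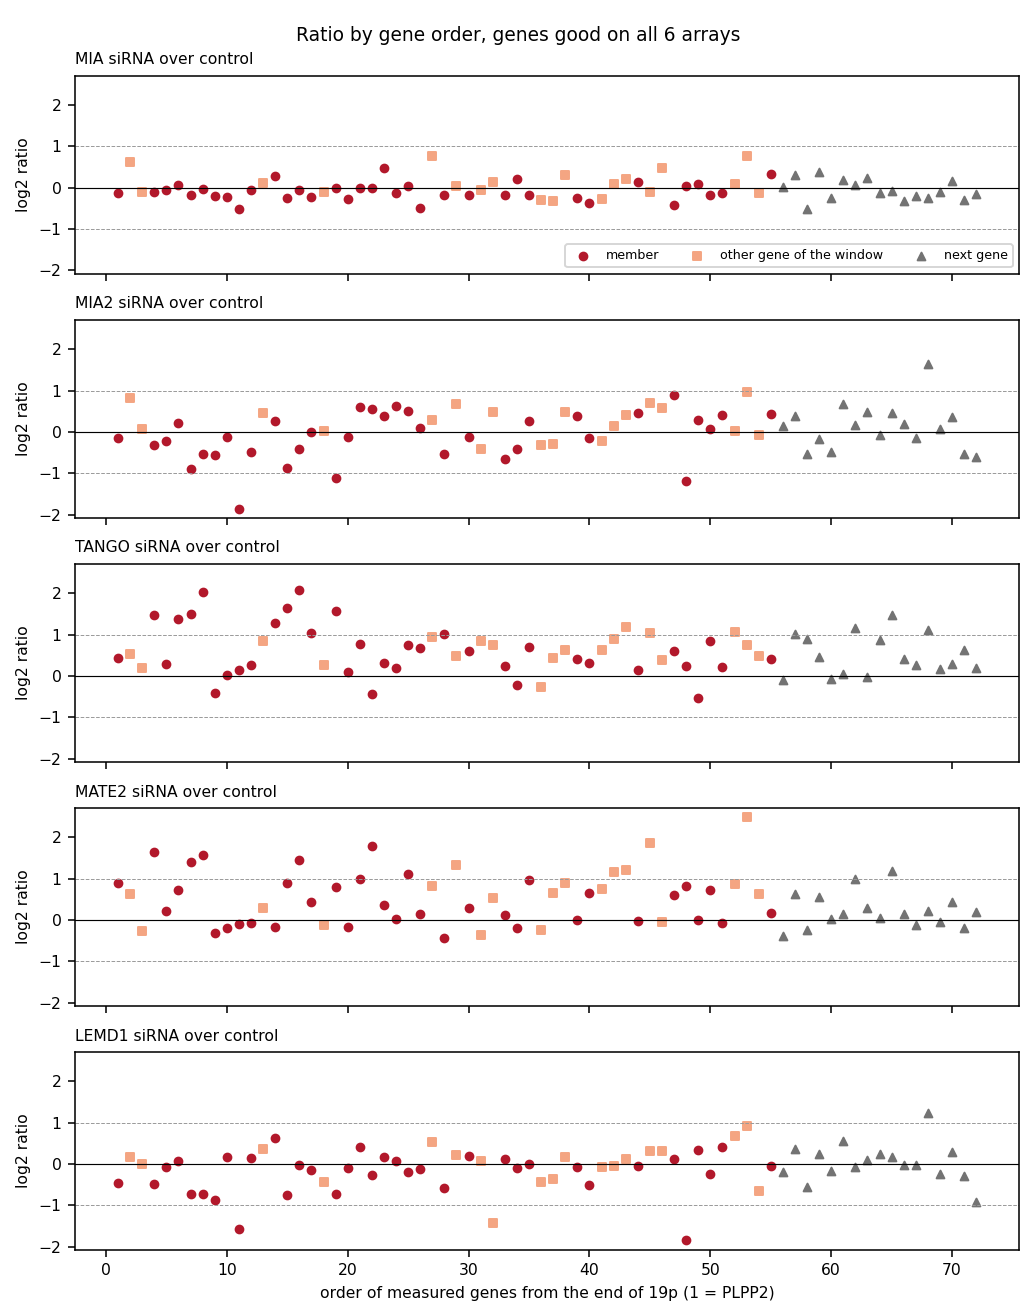
Log2 ratio over control (y axis) of 72 genes good on all 6 arrays in their order from the end of 19p (x axis), with 1 panel per siRNA array, members as red circles, other genes of the window as light squares and the next 17 genes as grey triangles; dashed lines mark 2-fold. Points lie mostly above 0 on TANGO and MATE2, with the highest members in the first 28 positions, and around 0 on the other arrays.

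Other stretches of the genome also departed from 0 on the same arrays. All genes good on the 6 arrays were cut into windows of 36 neighbours, and the 306 windows that held no member were set beside the members. The standard deviation of their medians was 0.21 on both TANGO and MATE2, compared with 0.05 on MIA, 0.12 on MIA2 and 0.09 on LEMD1. These medians ranged from -0.63 to 0.63 on TANGO, and 10 of 306 were at or above that of the 36 members (0.42). On MATE2 they ranged from -0.67 to 0.57, and 12 were at or above that of the members (0.33). A stretch of 52 genes in 11q13-q14 (P2RY2 to DLG2) had medians of 0.60 on TANGO and 0.38 on MATE2, 53 genes in 17p13 (MED11 to FXR2) had -0.55 and -0.40, and 55 genes in 4q31-q35 (FHIP1A to TRIML2) had -0.41 and -0.69. The median of the 36 listed members lay within the range of the other windows on both arrays. These members are not all neighbours, and their values chose the window, so nothing is read from that place. The first 36 neighbouring genes of chromosome 19, 27 of them members, had medians of 0.64 on TANGO and 0.33 on MATE2. On TANGO that median was above those of all 306 other windows. The stretch was picked for high values on that array, so nothing is read from this rank either.

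**Figure D5:**
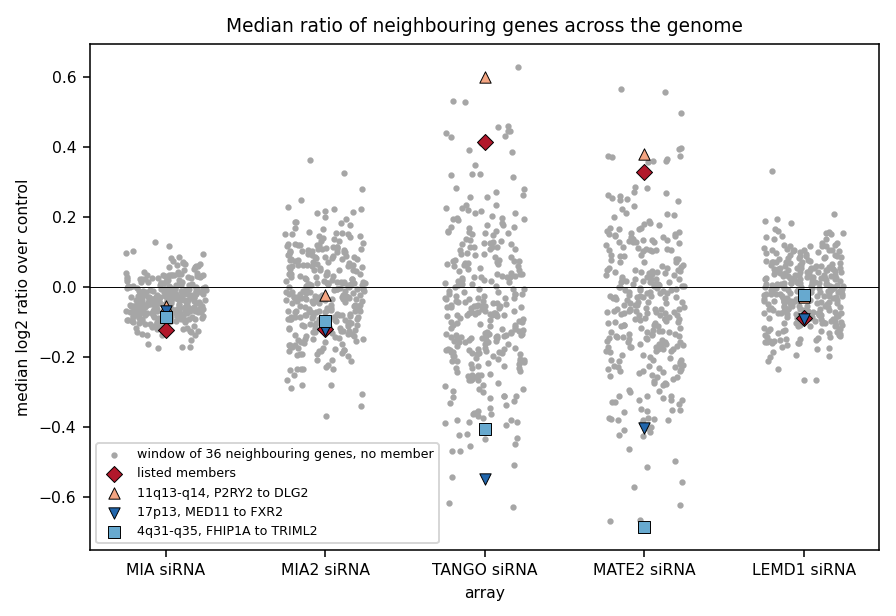
Median log2 ratio over control (y axis) of 306 windows of 36 neighbouring genes without a member (grey points, spread sideways for clarity) on each siRNA array (x axis), with the medians of the 36 members, of 11q13-q14, of 17p13 and of 4q31-q35 marked. The grey points spread most widely on TANGO and MATE2, where the members lie at 0.42 and 0.33.

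Within the pair, the members were not equally high. The median log2 ratio of MATE2 over TANGO was -0.17 over the 36 members and -0.04 over all genes. Of the 36 members, 13 lay above 0, compared with 5408 of all 11472 genes. GPX4 was 2-fold higher on MATE2 (2.22), and CIRBP (-1.46) and MED16 (-1.44) were 2-fold lower on MATE2 than on TANGO. The remaining 33 members differed by less than 2-fold between these arrays. Of all 11472 genes, 693 were 2-fold higher and 770 were 2-fold lower on MATE2 than on TANGO. As 12.8% of all genes thus differed 2-fold, the counts do not set the members apart.

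Other properties of the members were compared with those of all genes. The median gene span was 12335 bases for the 36 members and 26866 bases for all 11472 genes. It was also short elsewhere on the chromosome: 11678 bases for the other genes of the window, 12647 for the next 17 genes, 14507 for the rest of 19p and 13182 for 19q. Among genes whose promoter G and C content lay between 72.7% and 94.0%, the upper end of the range, the 15 members had medians of 0.43 on TANGO and 0.29 on MATE2, and the genes outside the member list had -0.04 and -0.14. Across the 31 members with a promoter, G and C content correlated with the log2 ratio at r = -0.34 on MIA, -0.16 on MIA2, -0.10 on TANGO, 0.05 on MATE2 and -0.11 on LEMD1. These points share the same arrays, control and region, the ratios on TANGO and MATE2 chose the window, and the part of G and C content in the results was not tested.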

How the data were processed

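RNA of HSC3 cells was measured on 6 one-colour CodeLink Human Whole Genome arrays, 1 per condition, and conditions came from the sample labels. The deposited scanner files hold spot intensity (software CodeLink Expression Analysis, version 5.0.0.31312, per the file headers), as the spot mean less the local background median, which was checked within 0.0001. The authors also deposited a normalized table made by quantile normalization, with a median intensity of 51.1 on each array. It is linear and uncentred, and it was used as an alternative.

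Here 320 of 53423 gene probes masked on any array were left out. The remaining 53103 were quantile normalized over the 6 arrays, floored at 1 and put on the log2 scale (Python 3.11.15, numpy 2.4.6, pandas 2.3.3; figures with matplotlib 3.10.9). Of the gene probes, 24092 had 1 current symbol, 905 had several and 28426 had none; probes were named through the platform table and RefSeq. Where a gene had several probes good on the arrays compared, the probe of highest average log2 signal across all 6 stood for it. Good spots per array numbered 27545 to 30628, and a ratio needed a good spot on both arrays.

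Genes were named by a rule: the 12 members with the largest and the 6 with the smallest mean ratio on TANGO and MATE2, the 10 of highest signal, those changed 2-fold on MIA, MIA2 or LEMD1, the edges of the window, members with disagreeing probes, and members of complexes with their partners. SHC2, TCF3, MIDN and THOP1 were named after their values were seen. The members, the 12 partner lists and the 4 marker lists were chosen with earlier results of these data known. No test was run, since each comparison rests on 1 array against 1 array. Alternatives covered scaling, background correction (normexp in limma 3.58.1, R 4.3.3), flags, brightness, probe choice, comparator and the deposited table.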

Additional observations from a re-analysis of the deposited data

How the results depend on the processing

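Each comparison rested on 1 array per condition, so a change of setting was judged by a shift of the members' median of over 0.1, a change of sign, or a count moved over 1.5 times. The median on MIA2, which was -0.06, turned to 0.0134 with each array scaled to its median, 0.0001 with 1 good flag sufficing, 0.062 without a filter on flags, 0.023 with the mean over good probes and 0.10 with the MIA array as comparator. The median on TANGO moved from 0.42 to 0.28 with normexp, 0.30 without background correction and 0.28 with 50 added to the signal, and to 0.60 with bright probes alone and 0.64 against the MIA array. On MATE2 it moved from 0.37 to 0.48 with 1 good flag sufficing and 0.61 with bright probes alone, and on LEMD1 from -0.08 to -0.21 against the median of the 5 other arrays. Members 2-fold higher numbered 6 of 21 on TANGO and 2 of 21 on MATE2 with bright probes alone, 11 on MATE2 against the MIA array, 1 on MIA without a filter on flags, 1, 2 and 1 on MIA2 with 1 good flag sufficing, without a filter and against the MIA array, and 1 and 2 on LEMD1 with 1 good flag sufficing and without a filter. Members 2-fold lower ranged over the alternatives from 0 to 2 on MIA, 1 to 3 on MIA2, 0 to 3 on TANGO and 2 to 3 on LEMD1. They stayed at 0 on MATE2. The counts of 0 lower on MIA and TANGO thus do not hold under every setting. Bright probes alone leave fewer members, and without a filter on flags all 47 members with a probe are measured on MIA. The number of all genes 2-fold higher on MIA also rose without that filter. These counts are given without the shares over all genes at the same settings, so nothing is read from them against the background. The cause of the other shifts was not tested. On TANGO and MATE2 the median stayed above 0 under every alternative run (0.28 to 0.64 and 0.29 to 0.61). Of 1376 values of single members under the alternatives, 1287 stayed within 0.25 of the value reported and 89 moved further. The sign turned in 42 values, 20 of them by more than 0.25 (such as, against the median of the 5 other arrays, POLR2E on LEMD1, from 0.42 to -0.18, and FSTL3 on MATE2, from -0.31 to 0.10), and in 0 values of members counted as 2-fold changed. Of 222 values of members counted as 2-fold changed, 21 were under 2-fold. Near-background signals limit 11 of the 47 members with a probe. No paired analysis was possible because every condition has 1 array and all arrays carry the same replicate number.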

Other observations

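Genes of the same stretch that were not on the member list were measured too, and some of their values exceeded those of the members. ZNF556, a zinc finger protein near the ZNF77 edge, had a log2 ratio of 2.49 on the MATE2-labelled array and 0.75 on the TANGO-labelled array, and 0.76, 0.95 and 0.91 on MIA, MIA2 and LEMD1. LSM7, a component of the Lsm ring that binds U6 snRNA, was at 1.03 on TANGO, 1.86 on MATE2 and 0.69 on MIA2. PLEKHJ1 was at 1.18 on TANGO and 1.201 on MATE2, ABHD17A, a depalmitoylating enzyme, at 0.89 and 1.17, and FAM174C at 0.48 and 1.32. NDUFS7, a subunit of mitochondrial complex I, was at 0.74 on TANGO and 0.53 on MATE2 and was 2-fold lower on LEMD1 (-1.44). Among the genes next beyond the window, HMG20B, a chromatin protein, was at 1.48 on TANGO and 1.18 on MATE2, DOHH, which completes the hypusine residue of eIF5A, at 1.16 and 0.98, and the G protein subunit GNA11 at 1.004 and 0.63. MRPL54, a mitochondrial ribosomal protein, was at 1.12 on TANGO but also at 1.63 on MIA2 and 1.23 on LEMD1. These genes were picked after their values were seen, and each value is 1 array over 1 array.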
